A study of Mus musculus with 8 samples.

Results

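The genes described here are regulators and markers of naive and memory T cells, measured in Th17 and Th1 cells with and without Tet2. They were taken as a list of 9 symbols, Tcf7, Lef1, Foxo1, Klf2, Klf3, Id3, S1pr1, Igfbp4 and Dapl1, and each was read from the probe set that carried its symbol and no other. Of the 9 genes, 8 were measured in this way, each by 1 probe set, out of 19938 genes in all, and Tcf7 was not analysed here. No filter on low signal was applied, so all 8 measured genes entered the tests.

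Messenger RNA was read on 8 Affymetrix arrays, 2 for each combination of genotype and T helper subset. The Tet2-deficient (KO) cells came from CD2(Cre)Tet2(f/f) mice and the wild-type (WT) cells from Tet2(f/f) mice, so both genotypes carry the floxed Tet2 alleles and the KO group differs by the CD2-driven Cre recombinase. The groups were KO Th17, WT Th17, KO Th1 and WT Th1 cells. Titles call the 2 arrays of a group biological replicates, but the labels used here do not say whether they came from separate animals or cultures, and give no age, strain, culture condition or time, so p-values measure the spread between these arrays.

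Naive and memory T cells are long-lived cells that circulate between blood and lymph nodes, and they hold a set of transcription factors that are turned down when a cell becomes an effector. Tcf7 and Lef1 encode related factors of the TCF/LEF family, which bind beta-catenin and groucho-type corepressors and keep T cells able to renew themselves. Foxo1 encodes a forkhead factor that the kinase Akt drives out of the nucleus after antigen and cytokine signals. In naive mouse T cells Foxo1 promotes Klf2, and Klf2 in turn promotes S1pr1, the receptor for sphingosine 1-phosphate that lets lymphocytes leave lymph nodes. Tet2 oxidizes methylated cytosine, which in mammalian DNA lies mostly in the dinucleotide CpG.

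The promoters of 4 of the 5 genes that differed between the subsets are shown (Lef1, Foxo1, Igfbp4 and Dapl1, with S1pr1 named only). CpG dinucleotides are the substrate context of Tet2, and of these windows that of Dapl1 held the fewest. Each is the stretch of 250 bases before the gene's start, 5′ to 3′ on the plus strand, from RefSeq with build GRCm38.p6, with every CpG in capitals. The windows are chr3:131110047-131110296 for Lef1, chr3:52268087-52268336 for Foxo1, chr11:99040994-99041243 for Igfbp4 and chr2:59484403-59484652 for Dapl1.
Lef1: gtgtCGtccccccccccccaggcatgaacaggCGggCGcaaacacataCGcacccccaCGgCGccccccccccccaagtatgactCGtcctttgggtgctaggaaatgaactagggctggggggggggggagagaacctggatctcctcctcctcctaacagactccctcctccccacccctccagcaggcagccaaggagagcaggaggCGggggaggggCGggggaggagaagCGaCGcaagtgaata
Foxo1: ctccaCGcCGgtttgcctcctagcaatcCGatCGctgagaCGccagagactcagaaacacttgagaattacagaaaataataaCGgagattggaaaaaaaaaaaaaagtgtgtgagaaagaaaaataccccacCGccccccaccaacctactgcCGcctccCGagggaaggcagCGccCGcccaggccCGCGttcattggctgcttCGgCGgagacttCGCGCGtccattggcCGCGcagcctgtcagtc
Igfbp4: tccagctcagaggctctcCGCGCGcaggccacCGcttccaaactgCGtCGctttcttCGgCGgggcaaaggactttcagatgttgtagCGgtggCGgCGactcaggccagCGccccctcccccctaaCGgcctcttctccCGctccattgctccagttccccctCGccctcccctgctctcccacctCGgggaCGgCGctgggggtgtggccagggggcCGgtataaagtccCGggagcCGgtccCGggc
Dapl1: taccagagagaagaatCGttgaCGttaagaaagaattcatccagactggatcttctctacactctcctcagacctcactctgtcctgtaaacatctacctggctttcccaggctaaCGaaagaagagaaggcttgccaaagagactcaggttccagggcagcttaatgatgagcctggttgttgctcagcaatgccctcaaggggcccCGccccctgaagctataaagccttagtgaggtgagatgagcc

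The Lef1 window held 11 CpG, the Foxo1 window 20 and the Igfbp4 window 22, against 4 in the Dapl1 window. The median over the windows of 27018 genes was 6. A window was found for 7 of the measured genes, and the 3 not printed, Id3, Klf3 and Klf2, held 18, 23 and 29 CpG. Dapl1 was thus the one gene of the 7 below the median, and the one of the printed 4 whose signal was lower in Th17 cells. Its count was not extreme, as 38.05% of all windows held fewer CpG. Observed over expected CpG was 0.26 for Dapl1 and 0.40 for Lef1, where the median was 0.38, and 0.75 for Igfbp4 and 1.04 for Foxo1. A link between CpG content and the direction of change was not tested. A forkhead motif, GTAAACA on either strand, was found in 1 of the 7, Dapl1, with its first base at -164 from the start, and in 3.06% of all windows. The TCF/LEF motif ATCAAAG was found in 0 of the 7 and in 3.26% of all windows. The E-box CANNTG, the motif of the E proteins that Id3 antagonizes, was found in 4 of the 7 and in 66.1% of all windows. The KLF motif CCACCC was found in 4 of the 7 and in 27.6% of all windows. These matches describe the letters of the windows, and methylation was not measured.

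Tet2 itself, read by 1 probe set, had log2 signals of 8.34 and 8.39 in KO Th17, against 8.51 and 8.49 in WT Th17 cells, and of 8.12 and 7.98 in KO Th1, against 8.14 and 8.02 in WT Th1 cells. Its log2 fold change between genotypes was not called in Th17 (-0.14 ± 0.12, limma, adjusted p = 0.99996) or Th1 cells (-0.03 ± 0.12, adjusted p = 0.982). Which part of Tet2 is deleted is not given in the sources used here, so a probe set that may lie outside it checks nothing about the labels.

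The arrays were alike in overall level, with a median log2 signal over all genes of 6.53 to 6.61. Markers of T cells were high on every array, with a mean log2 signal of 10.6 to 11.0 over 5 genes. All 6 measured Th17 markers were called higher in Th17 than in Th1 cells in each genotype, and 4 of 6 Th1 markers were called lower, among them Ifng and Tbx21. Another of the Th1 list, the receptor gene Il18r1, ran against the label in KO cells, where it was called higher in Th17 than in Th1 cells (0.87, adjusted p = 0.00736), and had 0.27 in WT cells, not called. The means of B cell, myeloid, dendritic and natural killer cell marker lists lay between 4.91 and 5.94 on every array, below the array's median. Between the subsets only the natural killer list of these 4 held a called gene, Eomes, which T cells also express. The list of 3 regulatory T cell markers had means of 6.96 and 6.96 in KO Th17, 7.26 and 7.32 in WT Th17 and 6.73 to 6.79 in Th1 cells, with Gpr83 called higher in Th17 cells of both genotypes and Foxp3 in neither. Its part in the results below was not tested. The female share of the RNA, measured from Xist, was 14.7% and 100% on the KO Th17 arrays and 0.187% and 42.9% on the WT Th17 arrays, where the array with the most Xist is set to 100%. On the Th1 arrays it lay between -0.130% and 0.105%, so the sex of the RNA moved with the subset, except that WT Th17 replicate 1 was near the Th1 arrays. Within Th17 cells it also varied between replicates and between the genotypes.

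Between the subsets, 5 of the 8 genes differed in each genotype. Lef1, S1pr1, Igfbp4 and Foxo1 were higher in Th17 than in Th1 cells, and Dapl1 was lower, in KO and in WT cells alike. A gene is called here at an adjusted p under 0.05 over all genes. In KO cells the limma model called 4 of the 8 higher, where 6.32% of all genes were called higher, and 1 lower, where 3.79% were, which is 10.1% in either direction. In WT cells 4 were called higher and 1 lower, where 4.97% of all genes were called higher, 3.44% lower and 8.4% in either direction. Adjusted for the female share, 3 of the 8 were called in KO cells, where Igfbp4 and Foxo1 lost their calls. All 5 kept their calls in WT cells. Over all genes, 2015 were called in KO cells, and 726 with that adjustment. Without a test, the arrays of the subsets were separate for 8 of the 8 genes in KO cells, 7 higher and 1 lower, and this held for 57.5% of all genes, 25.8% higher and 31.7% lower. In WT cells they did not overlap for 6 of the 8, 5 higher and 1 lower, and for 52.2% of all genes, 23.8% higher and 28.4% lower. The median log2 fold change of the 8 genes was 0.58 in KO and 0.58 in WT cells, while that of all genes was -0.03 in each. In bulk RNA, fewer cells of a type and less RNA per cell cannot be told apart.

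**Figure D1:**
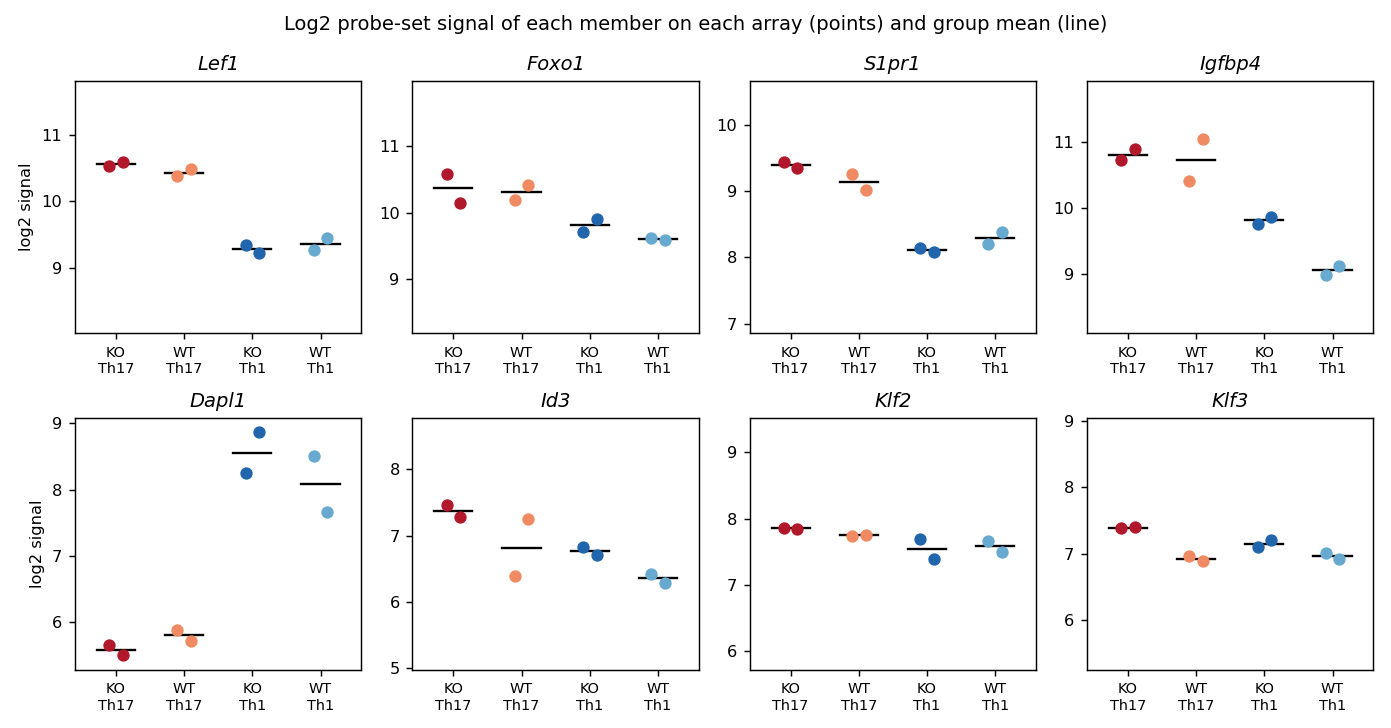
Log2 signal (vertical axis, each panel spanning the same number of log2 units) of the 8 measured genes on every array, with 2 points per group and a line at the group mean, in the order KO Th17, WT Th17, KO Th1 and WT Th1. Lef1, S1pr1, Igfbp4 and Foxo1 lie higher on all Th17 arrays than on all Th1 arrays, and Dapl1 lies lower. The mean of KO Th17 cells is the highest of the 4 groups for every gene except Dapl1.

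Lef1, the TCF/LEF factor of the pair that was measured, had log2 signals of 10.53 and 10.60 in KO Th17 cells, against 9.34 and 9.23 in KO Th1 cells. WT Th17 cells had 10.38 and 10.49, against 9.27 and 9.45 in WT Th1 cells. All 4 Th17 arrays lay at least 0.93 above all 4 Th1 arrays, a gap wider than any difference between replicates. The log2 fold change of Lef1 was 1.28 ± 0.12 in KO cells (standard error, n = 2 and 2, limma, adjusted p = 4.2e-05), or 2.42-fold. It was 1.08 ± 0.12 in WT cells (n = 2 and 2, limma, adjusted p = 0.000181), or 2.11-fold. Lef1 kept its call in every alternative that was run, with log2 fold changes of 1.22 to 1.33 in KO and 0.99 to 1.17 in WT cells when an array was left out.

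Foxo1 had log2 signals of 10.58 and 10.15 in KO Th17 cells, against 9.72 and 9.90 in KO Th1 cells. The WT signals were 10.20 and 10.42 in Th17, against 9.61 and 9.59 in Th1 cells. The subsets did not overlap in either genotype, but the KO Th17 replicates differed from each other by 0.43, the largest replicate difference of any of the 8 genes in that group. The log2 fold change of Foxo1 was 0.56 ± 0.15 in KO cells (n = 2 and 2, limma, adjusted p = 0.0379) and 0.71 ± 0.15 in WT cells (n = 2 and 2, limma, adjusted p = 0.0142). These were the smallest of the called changes. In KO cells the call ended without KO Th17 replicate 1 (0.34, adjusted p = 0.353), without KO Th1 replicate 1 (0.47, adjusted p = 0.219) and without KO Th1 replicate 2 (0.65, adjusted p = 0.0718). In WT cells it ended without WT Th17 replicate 2 (0.60, adjusted p = 0.131) and without WT Th1 replicate 1 (0.72, adjusted p = 0.0535) or 2 (0.70, adjusted p = 0.0503). Adjusted for the female share, Foxo1 had 0.73 in KO cells, no longer called (adjusted p = 0.0823), and 0.77 in WT cells, still called (adjusted p = 0.0178).

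S1pr1, the egress receptor, had log2 signals of 9.44 and 9.35 in KO Th17 cells, against 8.14 and 8.08 in KO Th1 cells. WT Th17 cells had 9.26 and 9.02, against 8.20 and 8.38 in WT Th1 cells. The 4 Th17 arrays all lay above the 4 Th1 arrays, and the gap was wider in KO than in WT cells. The log2 fold change of S1pr1 was 1.29 ± 0.13 in KO cells (n = 2 and 2, limma, adjusted p = 5.24e-05), or 2.44-fold, and 0.85 ± 0.13 in WT cells (n = 2 and 2, limma, adjusted p = 0.00138), or 1.80-fold. The difference between these, 0.44 ± 0.18, did not pass over all genes (adjusted p = 0.999, unadjusted p = 0.0322). Both calls held when adjusted for the female share, at 1.40 in KO and 0.89 in WT cells.

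Klf2, the factor upstream of S1pr1 in naive cells, had log2 signals of 7.86 and 7.85 in KO Th17 cells, against 7.70 and 7.39 in KO Th1 cells. The WT signals were 7.74 and 7.76 in Th17, against 7.67 and 7.50 in Th1 cells. Every Th17 array lay above every Th1 array, but the nearest pair differed by 0.047, less than the 0.31 between the KO Th1 replicates. Log2 fold changes were 0.31 ± 0.13 in KO cells (n = 2 and 2, limma, adjusted p = 0.154) and 0.17 ± 0.13 in WT cells (n = 2 and 2, limma, adjusted p = 0.454), neither called. The intervals of 95% ran from 0.03 to 0.59 in KO and from -0.11 to 0.45 in WT cells, so that a Klf2 difference as large as that of S1pr1 lay outside both.

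Igfbp4, which encodes a secreted protein that binds insulin-like growth factors and is known as a transcript of naive T cells, had log2 signals of 10.72 and 10.88 in KO Th17 cells, against 9.76 and 9.87 in KO Th1 cells. WT Th17 cells had 10.41 and 11.04, against 9.0 and 9.13 in WT Th1 cells. WT Th1 cells stood lowest of the 4 groups, and the WT Th17 arrays lay on either side of both KO Th17 arrays. The log2 fold change of Igfbp4 was 0.99 ± 0.18 in KO cells (n = 2 and 2, limma, adjusted p = 0.00376), or 1.98-fold, and 1.66 ± 0.18 in WT cells (n = 2 and 2, limma, adjusted p = 0.000103), or 3.16-fold. Adjusted for the female share, the KO call ended (0.73, adjusted p = 0.105), and the WT call held at 1.56.

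Dapl1, known as a transcript of naive and memory T cells, ran the other way and had the widest range over the arrays of the 8 genes, 3.36 log2 units. Its log2 signals were 5.66 and 5.51 in KO Th17 cells, against 8.25 and 8.86 in KO Th1 cells. In WT cells they were 5.88 and 5.72 in Th17, against 8.51 and 7.67 in Th1 cells. The Th17 signals lay below the array median and the Th1 signals above it. The Th17 signals also lay within the range of the marker list means of other cell types, 4.91 to 5.94. They are thus not shown to be above background, and the estimated folds may be too small for that reason. The Th1 replicates differed from each other by 0.61 in KO and 0.84 in WT cells, which leaves the folds uncertain in both directions. The log2 fold change of Dapl1 was -2.98 ± 0.24 in KO cells (n = 2 and 2, limma, adjusted p = 9.29e-06), an estimated 7.87-fold lower in Th17 than in Th1 cells. It was -2.28 ± 0.24 in WT cells (n = 2 and 2, limma, adjusted p = 8.72e-05), at least 4.87-fold lower. Dapl1 kept its call in every alternative that was run, with -3.28 to -2.67 in KO and -2.70 to -1.87 in WT cells when an array was left out.

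Id3, an inhibitor that binds E proteins and keeps them off DNA, had log2 signals of 7.47 and 7.28 in KO Th17 cells, against 6.83 and 6.72 in KO Th1 cells. The WT signals were 6.39 and 7.25 in Th17, against 6.43 and 6.29 in Th1 cells. The low WT Th17 array, replicate 1, lay among the WT Th1 arrays and was the Th17 array with the lowest Xist signal. Log2 fold changes were 0.60 ± 0.21 in KO cells (n = 2 and 2, limma, adjusted p = 0.0911) and 0.46 ± 0.21 in WT cells (n = 2 and 2, limma, adjusted p = 0.197), neither called. Without that array Id3 was called in both genotypes, at 0.60 in KO (adjusted p = 0.00934) and 0.89 in WT cells (adjusted p = 0.00528). Without WT Th17 replicate 2 it was called in KO cells (0.60, adjusted p = 0.00916) and had 0.03 in WT cells. Adjusted for the female share it was called in neither, at 0.47 in KO and 0.41 in WT cells.

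Klf3, a repressor of the same family as Klf2, had log2 signals of 7.38 and 7.40 in KO Th17 cells, against 7.10 and 7.20 in KO Th1 cells. WT Th17 cells had 6.96 and 6.89, against 7.0 and 6.92 in WT Th1 cells. The subsets overlapped in WT cells and did not in KO cells. Log2 fold changes were 0.24 ± 0.11 in KO cells (n = 2 and 2, limma, adjusted p = 0.187) and -0.04 ± 0.11 in WT cells (n = 2 and 2, limma, adjusted p = 0.866), neither called.

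**Figure D2:**
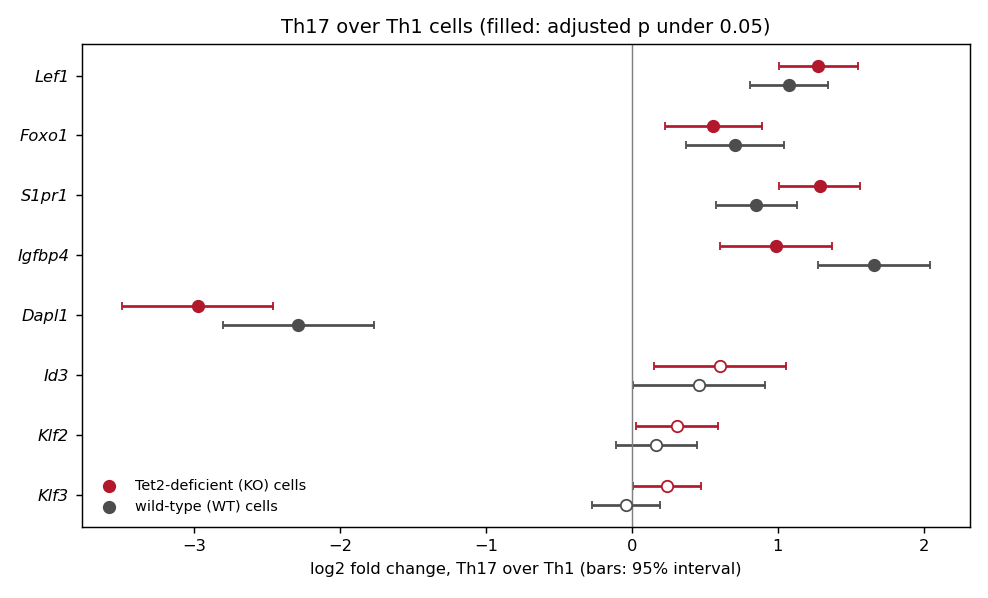
Log2 fold change of Th17 over Th1 cells (horizontal axis) for the 8 genes (vertical axis), with KO above WT in each pair and bars for the 95% interval. Filled points passed an adjusted p of 0.05, as Lef1, Foxo1, S1pr1, Igfbp4 and Dapl1 did in both genotypes, with Dapl1 at -2.98 in KO and -2.28 in WT cells.

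Between the genotypes, 0 of the 8 genes were called in Th17 cells and 0 in Th1 cells, by limma over all genes. In all, 0% of genes were called in Th17 cells and 0.00502% in Th1 cells, so the genotype comparison gave almost no calls for any gene. At an unadjusted p under 0.05 there were 2 of the 8 in Th17 cells, where 4.13% of all genes had one, and 1 of the 8 in Th1 cells, where 6.05% had one. Averaged over both subsets the model called 0 of the 8, with 0% called among all genes, and 3 of the 8 had an unadjusted p under 0.05, where 5.48% of all genes had one. These 3 were Klf3, Igfbp4 and Id3, each above 0. Arrays of the genotypes did not overlap for 6 of the 8 genes in Th17 cells, 5 higher and 1 lower, where 32.9% of all genes did not, 18.8% higher and 14.1% lower. In Th1 cells they did not overlap for 5 of the 8, 4 higher and 1 lower, where 33.3% of all genes did not, 19.6% higher and 13.7% lower. The median log2 fold change of the 8 genes was 0.11 in Th17 and 0.20 in Th1 cells, against 0.01 for all genes in each. The 1 lower in Th17 cells was Dapl1, whose signal there is not shown to be above background, and its value also entered the Th17 median.

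Klf3 had the smallest p of the 8 in Th17 cells. Its log2 fold change was 0.47 ± 0.11 there (n = 2 and 2, limma, adjusted p = 0.693), and both KO Th17 arrays lay at least 0.42 above both WT Th17 arrays, whose replicates differed by 0.067. In Th1 cells Klf3 had 0.19 ± 0.11 (n = 2 and 2, limma, adjusted p = 0.837), again with both KO arrays above both WT arrays. The Klf3 value in Th17 cells stayed between 0.44 and 0.50 when an array was left out and was 0.47 when adjusted for the female share.

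Igfbp4 had the smallest p of the 8 in Th1 cells. Both KO Th1 arrays, at 9.76 and 9.87, lay above both WT Th1 arrays, at 9.0 and 9.13, and the log2 fold change was 0.75 ± 0.18 (n = 2 and 2, limma, adjusted p = 0.797), or 1.69-fold. In Th17 cells, where the WT arrays spread by 0.63, Igfbp4 had 0.08 ± 0.18 (n = 2 and 2, limma, adjusted p = 0.99996), which turned to -0.082 when adjusted for the female share. The Th17 effect minus the Th1 effect was -0.67 ± 0.25, not called (limma, adjusted p = 0.999, unadjusted p = 0.0192). For that difference 0 of the 8 genes were called, with 0% of all genes, and 2 of the 8, Igfbp4 and S1pr1, had an unadjusted p under 0.05, where 4.48% of all genes had one.

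Id3 had log2 fold changes of 0.55 ± 0.21 in Th17 cells (n = 2 and 2, limma, adjusted p = 0.99996) and 0.41 ± 0.21 in Th1 cells (n = 2 and 2, limma, adjusted p = 0.830). All KO arrays of a subset lay above its WT arrays, but in Th17 cells the nearest pair differed by 0.028. Without WT Th17 replicate 1 the Th17 value was 0.12, and without WT Th17 replicate 2 it was 0.99, so the size of the Id3 difference in Th17 cells was set by which WT array was kept.

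The other 5 genes had an unadjusted p of 0.05 or more between the genotypes in each subset. Lef1 had 0.13 in Th17 cells, with an interval of 95% from -0.14 to 0.40, and -0.07 in Th1 cells, from -0.34 to 0.20. Dapl1 had 0.47 in Th1 cells, from -0.04 to 0.99, and no value is read for Th17 cells, where its signal is not shown to be above background. S1pr1 had 0.25 in Th17 cells, from -0.02 to 0.53, and -0.18 in Th1 cells, from -0.46 to 0.10. Foxo1 (0.06 and 0.21) and Klf2 (0.10 and -0.04, Th17 before Th1) had intervals that spanned 0 in both subsets. For Lef1, intervals of this width leave out a genotype difference as large as its difference between subsets, and for Dapl1 in Th1 cells the interval leaves out one as large as either subset difference.

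**Figure D3:**
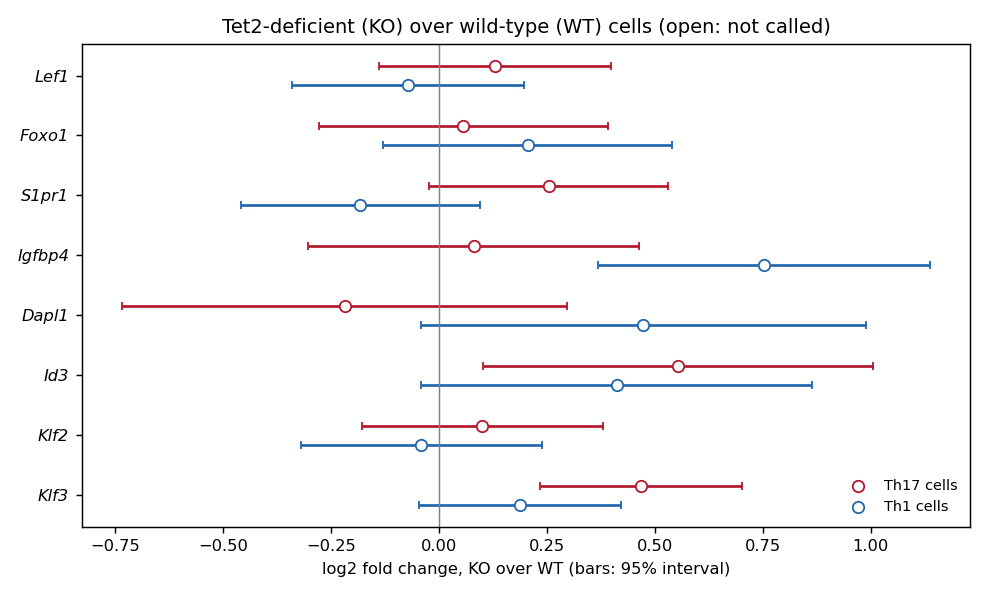
Log2 fold change of KO over WT cells (horizontal axis) for the 8 genes (vertical axis), with Th17 above Th1 in each pair and bars for the 95% interval. All points are open because none passed an adjusted p of 0.05, and the intervals that lie wholly above 0 are those of Klf3 and Id3 in Th17 and of Igfbp4 in Th1 cells.

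The wider pathways were read from lists that leave out the 9 genes. Among naive, memory and quiescence genes, 29 were measured. In KO cells 12 were called higher and 4 lower in Th17 than in Th1 cells, with a median log2 fold change of 0.43, and in WT cells 13 were called higher and 3 lower, with a median of 0.40. Among all genes 6.32% were called higher and 3.79% lower in KO cells and 4.97% and 3.44% in WT cells, with a median of -0.03 in each, and the lists that follow stand beside the same values. Those called higher in both genotypes included Pecam1, an adhesion molecule of leukocytes and endothelium (1.11 in KO, 1.32 in WT), Sesn3, a sestrin known as a Foxo target (1.37 in KO, 1.23 in WT), and Txnip, an inhibitor of thioredoxin and glucose uptake (1.35 in KO, 1.0 in WT). Myb, a transcription factor of stem-like T cells, had 0.64 in KO and 1.25 in WT cells, both called. Called lower in both genotypes were Eomes, a T-box factor of memory and cytotoxic T cells (-1.40 in KO, -1.33 in WT), Ccr7, the lymph node homing receptor (-0.74 in KO, -0.50 in WT), and Actn1, an actin crosslinker (-0.59 in KO, -0.68 in WT). The list therefore did not move one way. The KO counts were 4 higher and 1 lower when adjusted for the female share. They were 6 higher and 3 lower without KO Th17 replicate 1, 8 higher and 2 lower without KO Th17 replicate 2, 6 higher without KO Th1 replicate 1 and 2 lower without KO Th1 replicate 2. Adjusted in the same way, the WT counts were 10 higher and 2 lower.

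Of the list of Foxo regulators and targets, which shares genes such as Ccr7 and Sesn3 with the list above, 31 genes were measured. In KO cells 13 were called higher and 3 lower in Th17 than in Th1 cells, with a median of 0.18, where 6.32% and 3.79% of all genes were. In WT cells 12 were called higher and 2 lower, with a median of 0.15, where 4.97% and 3.44% of all genes were. Sgk1, a kinase that phosphorylates Foxo factors, rose by 1.69 in KO and 1.45 in WT cells on the log2 scale. Also called higher in both were Bcl6, a transcriptional repressor (1.87 in KO, 1.18 in WT), Sesn1, a sestrin (1.03 in KO, 1.24 in WT), Ccng2, a cyclin of resting cells (1.55 in KO, 0.93 in WT), and Ctla4, an inhibitory receptor (1.16 in KO, 1.27 in WT). Irs2, an insulin receptor substrate, was called lower in both (-0.77 in KO, -0.64 in WT). Bcl2l11, which encodes the death factor Bim, was called lower in KO cells (-0.50) and not in WT cells (-0.36). Adjusted for the female share, 12 were called higher and 0 lower in KO cells, and 11 higher and 1 lower in WT cells. Without WT Th17 replicate 2 the WT counts were 7 higher and 0 lower.

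Of 20 measured effector and activation genes, 9 were called lower and 3 higher in Th17 than in Th1 cells of the KO genotype, with a median of -0.40, and 8 lower and 3 higher in WT cells, with a median of -0.20. Called lower in both genotypes were Gzmb, which encodes granzyme B (-4.72 in KO, -4.85 in WT), Tbx21, the Th1 factor T-bet (-3.34 in KO, -2.58 in WT), Prdm1, the repressor Blimp-1 (-0.67 in KO, -1.63 in WT), and Tnfrsf9, a costimulatory receptor (-1.13 in KO, -0.63 in WT). Cd69, an early activation antigen that pulls the S1pr1 protein off the cell surface, rose by 0.87 in KO and 1.17 in WT cells. Id2, the relative of Id3 that is high in effector cells, rose by 1.21 in KO and 1.01 in WT cells, and the costimulatory receptor Icos by 0.63 in KO and 0.92 in WT cells. Tbx21 and Gzmb are parts of the Th1 program itself. The WT Th17 signals of Prdm1, 5.87 and 5.83, and that of KO Th17 replicate 1, 5.93, lay between 4.91 and 5.94. That is the range of the marker list means of other cell types. These Prdm1 signals are thus not shown to be above background, and its estimated folds may be too small. The count called higher in KO cells was 1 when adjusted for the female share and 1 without KO Th17 replicate 1, and the count called lower in WT cells was 5 without WT Th17 replicate 1.

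**Figure D4:**
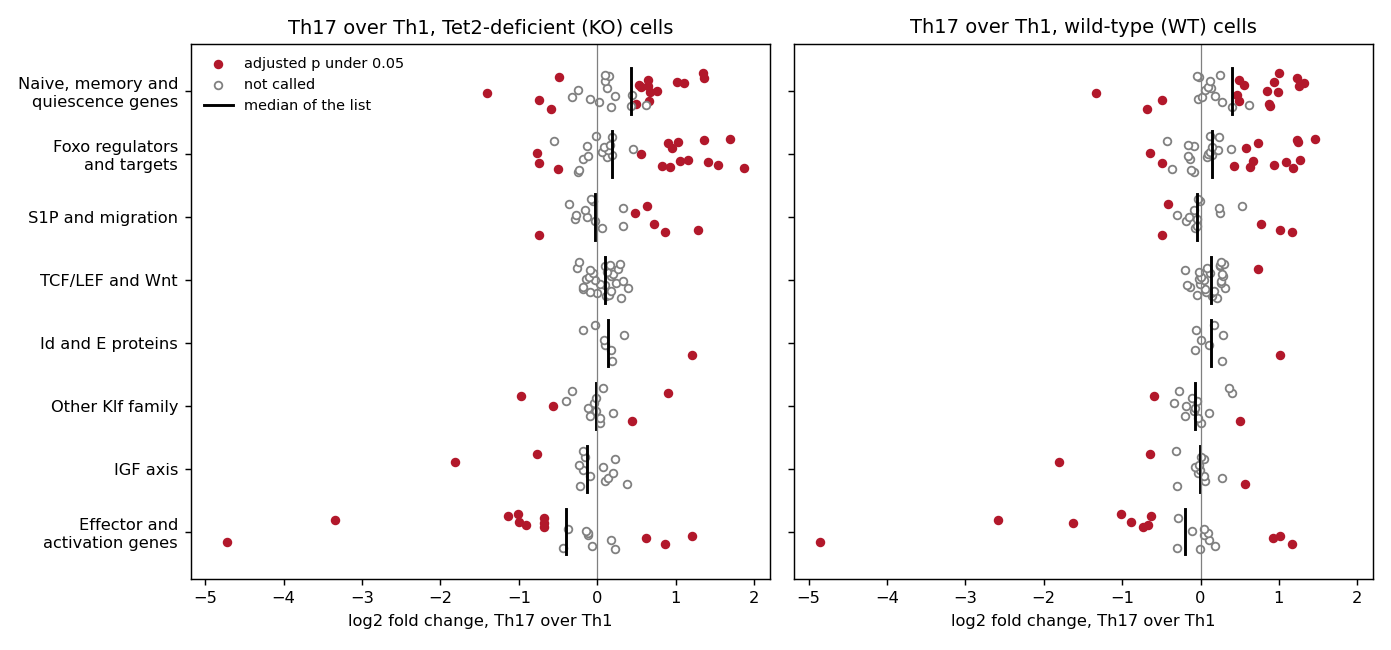
Log2 fold change of Th17 over Th1 cells (horizontal axis) of every measured gene of the 8 pathway lists (rows), in KO cells on the left and WT cells on the right, with a bar at each list's median and filled points for an adjusted p under 0.05. The medians of the naive and quiescence list, 0.43 and 0.40, lie right of 0 and those of the effector list, -0.40 and -0.20, lie left of it.

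Partners of single genes were read from 5 further lists. Of 27 TCF/LEF and Wnt pathway genes, 0 were called in KO cells and 1 in WT cells, the corepressor gene Tle1 (0.73 ± 0.11, adjusted p = 0.00105, limma), which had 0.27 in KO cells. The WT Th1 signals of Tle1, 5.37 and 5.32, lay within the range of the marker list means of other cell types, 4.91 to 5.94. So did its KO Th1 signals, 5.63 and 5.68, and that of KO Th17 replicate 2, 5.85. These signals are thus not shown to be above background. The median log2 fold change of the 27 was 0.10 in KO and 0.13 in WT cells. Of 8 Id and E protein genes, 1 was called in each genotype, Id2, and the E proteins themselves were not. Of 15 other Klf genes, 2 were called higher and 2 lower in KO cells, and 1 each in WT cells. Klf6 was called lower (-0.97 in KO, -0.60 in WT) and Klf10 higher (0.44 in KO, 0.51 in WT) in both genotypes. Klf7 (0.91) and Klf16 (-0.56) were called in KO cells, and in WT cells had 0.41 and -0.18, not called.

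Of 17 genes of sphingosine 1-phosphate signalling and migration, 5 were called higher and 1 lower in KO cells, and 3 higher and 2 lower in WT cells. In each genotype these counts include Cd69, called higher, and Ccr7, called lower, which were already counted in lists above. Cxcr4, a chemokine receptor that holds cells in bone marrow and germinal centres, rose by 1.29 in KO and 1.02 in WT cells, and the gut homing integrin gene Itgb7 by 0.72 in KO and 0.77 in WT cells. Sphk1, which makes sphingosine 1-phosphate, had -0.36 in KO cells, not called, and -0.42 in WT cells, called. Of 14 genes of the insulin-like growth factor axis, 0 were called higher and 2 lower in KO cells, and 1 higher and 2 lower in WT cells, where 10.1% of all genes were called in either direction in KO and 8.4% in WT cells. Igfbp7, which encodes a relative of the Igfbp4 protein, was called lower in both (-1.81 in KO, -1.80 in WT), so the 2 binding protein genes changed in opposite directions. Igf1r, the receptor gene, had 0.39 in KO cells, not called, and 0.56 in WT cells, called. Irs2, already counted in the Foxo list, was the other gene called lower in both. Between the genotypes, 0 genes of the 8 lists were called in either subset.

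The genes most like each of the 8 over the 8 arrays were found among 1005 genes with a range of at least 1 log2 unit. The arrays share the subset difference, so for the genes called between the subsets these correlations describe mostly that difference. Klf3 had little of it (0.24 in KO and -0.04 in WT cells, neither called) and a larger value between genotypes in Th17 cells (0.47, not called). None of the correlations carries a test. Lef1 was most like Nlk, which encodes a kinase known to phosphorylate TCF/LEF factors (Pearson r = 0.997), and S1pr1 was most like Herc3 (r = 0.997). Dapl1 was most like Iigp1, an interferon-inducible GTPase (r = 0.990), and Foxo1 like Inpp5d, which encodes the phosphatase SHIP1 (r = 0.978). Igfbp4 was most like Zfp831 (r = 0.989) and Klf2 like Cerk, which encodes ceramide kinase (r = 0.921). Id3 and Klf3 shared their nearest gene, Tnfrsf14, which encodes a receptor of the tumour necrosis factor family (r = 0.940 with Id3 and 0.842 with Klf3). Tnfrsf14 had log2 signals of 9.68 and 9.54 in KO Th17, against 8.77 and 9.14 in WT Th17 cells, and of 9.01 and 9.11 in KO Th1, against 8.71 and 8.48 in WT Th1 cells. Its KO arrays lay above the WT arrays of the same subset, as those of Klf3 and Id3 did. Tnfrsf14 was picked for its likeness to them over these same arrays, so the shared order is no separate finding. Both KO arrays lay above both WT arrays for 18.8% of all genes in Th17 and 19.6% in Th1 cells. The log2 fold change of Tnfrsf14 over both subsets, 0.56, was not called (limma, adjusted p = 0.275).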

How the data were processed

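The authors deposited log2 probe-set signals for 8 arrays. GCOS, RMA and Affymetrix Expression Console are named in the submitters' processing notes, while versions, order of steps and genome build are not given in the sources used here. RMA scales arrays to one another, so the values were used as deposited. A platform annotation names 23410 of 35556 probe sets. Of these, 1621 with several symbols were left out, and the highest-mean probe set was kept for each of 19938 genes.

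The model was limma 3.58.1 under R 4.3.3, fitting a mean for each of the 4 groups (lmFit), with variances moderated by eBayes along a trend in intensity (4 residual and 8.32 prior degrees of freedom). Tests were two-sided. Benjamini-Hochberg adjustment ran over all genes within each contrast, and called means an adjusted p below 0.05. The script was tested on simulated data. Errors printed after ± are standard errors. Arrays carry no counting depth, so their number limits the precision. The female share was computed from linear Xist signals.

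The 9 genes and the gene lists were chosen with earlier results of these data known. Named list genes are up to 3 called genes with the largest change per direction in WT cells and up to 3 in any other contrast. Tet2, Xist, Ifng, Il18r1, Gpr83 and Foxp3 were named outside that rule. The counts of the naive, Foxo and effector lists under the alternatives were added after the data were seen. Deviations of same-numbered replicates correlated between -0.186 and 0.061 across groups, so no pairing by number was seen. Low correlations cannot decide whether the numbers pair the arrays, because differences between single arrays can hide a shared animal or culture.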

Additional observations from a re-analysis of the deposited data

How the results depend on the processing

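The 8 genes were tested in 6 contrasts under 8 other settings and with each array left out, which gave 752 log2 fold changes. Without leaving out an array, 362 kept their direction and their side of the threshold, 1 changed sign, 1 gained and 4 lost a call. With an array left out, 356 kept both, 19 changed sign, 3 gained and 6 lost a call. Calls between the subsets ended only for Foxo1 and Igfbp4 and were gained only by Id3. With the replicate block, the one call that ended was that of Foxo1 in KO cells (0.56, adjusted p = 0.0623), which also ended with quantile normalization applied again (0.47, adjusted p = 0.0716). Id3 was called in KO cells in a fit on those arrays alone (0.60, adjusted p = 0.0102). Adjusted for the female share, 3 of the 8 genes were called between the subsets in KO cells, and Igfbp4 between genotypes in Th17 cells was -0.082. Of the 8, those called between the subsets with an array left out numbered 4 to 6 in KO and 4 to 6 in WT cells.

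Over all genes, 2015 were called between the subsets in KO cells, 726 when adjusted for the female share and 801 to 2335 with an array left out. In WT cells 1675 were called, 1101 in a fit on those arrays alone and 663 to 1551 with an array left out. Between genotypes in Th1 cells 1 was called, 0 in a fit on those arrays alone and 0 to 2 with an array left out. In Th17 cells 0 were called, 1 with a filter on low signal and 0 to 4 with an array left out. Averaged over the subsets 0 were called, 1 with quantile normalization applied again and 0 to 5 with an array left out, and for the difference of effects 0 to 4.

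With an array left out, sign changes were found between genotypes for Klf2 (-0.20 to 0.11) and Lef1 (-0.16 to 0.017) in Th1 and Igfbp4 (-0.24 to 0.40) and Foxo1 (-0.16 to 0.27) in Th17 cells. Averaged over the subsets they were found for Dapl1 (-0.082 to 0.34), Klf2 (-0.048 to 0.11), Lef1 (-0.016 to 0.073) and S1pr1 (-0.025 to 0.096). In the difference of effects they were found for Id3 (-0.29 to 0.57), Foxo1 (-0.36 to 0.065) and Klf2 (-0.014 to 0.30), and between the subsets of WT cells for Klf3 (-0.079 to 0.0025). The cause was not tested for any of these. A fit on the compared arrays alone is the same as the full fit for the average and the difference, and was not run there.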
